A study of Mus musculus with 24 samples.

Results

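The genes described here are enzymes that recycle or divert nicotinamide on its way to NAD and enzymes that consume NAD in deacylation and ADP-ribosylation. All 9 were taken by symbol from the 33079 genes of the deposited exon expression table: Nampt, Nmnat1, Nmnat2, Nmnat3, Nnmt, Sirt1, Sirt3, Sirt6 and Parp1. Expression was measured by polyA-selected RNA-seq in mouse embryonic stem (mES) cells that carry a Luciferase knock-in at Per2. WT denotes these control cells, and KO denotes cells of the same kind in which exons of Rev-erbα (Nr1d1) and Rev-erbβ (Nr1d2), genes of the repressors in the secondary loop of the circadian clock, had been deleted with CRISPR/Cas9. Both were differentiated through embryoid bodies for 28 days, synchronized with 100 nM dexamethasone, a steroid hormone analogue, and harvested 12 to 56 h later at intervals of 4 h. Each genotype thus has 12 libraries, 1 per time point, and the RNA of 3 embryoid bodies was combined in each. KO cells were grown from picked colonies, with Rev-erbα targeted in an already Rev-erbβ-deficient line, so genotype and cell line cannot be told apart.

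In the salvage pathway, NAMPT joins nicotinamide to a ribose phosphate to give nicotinamide mononucleotide, and the NMNAT enzymes turn that product into NAD, with NMNAT1 in the nucleus, NMNAT2 at the Golgi and in axons and NMNAT3 assigned to mitochondria. NNMT methylates nicotinamide and so takes it out of the cycle, while the deacylases SIRT1, SIRT3 and SIRT6 and the ADP-ribosyl transferase PARP1 split NAD and release nicotinamide. In liver, CLOCK and BMAL1 are known to drive a daily rhythm of Nampt through E-boxes, and SIRT1 is known to act back on the clock proteins, which is why these genes are of interest in cells without REV-ERBs.

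The promoters of the 4 genes with the largest level differences between KO and WT are shown because clock factors act through short elements in such regions. Of these genes, Nmnat2 and Nmnat3 passed the test of level described below, while Nampt and Sirt1 did not. The promoters are RefSeq sequences (GRCm38.p6), from 250 bases before to 50 bases after the annotated start, written 5′ to 3′ on the strand of the gene. Capitals mark matches to 6 searched elements: the E-box CACGTG, its variant CACGTT, the nuclear receptor half-site AGGTCA, the ends TAGGTCA and TGGGTCA of the element bound by ROR and REV-ERB, and the D-box TTANGTAA. Both strands were searched, and AGGTCA also lies within TAGGTCA.
Nampt, chr12:32820085-32820384, plus strand: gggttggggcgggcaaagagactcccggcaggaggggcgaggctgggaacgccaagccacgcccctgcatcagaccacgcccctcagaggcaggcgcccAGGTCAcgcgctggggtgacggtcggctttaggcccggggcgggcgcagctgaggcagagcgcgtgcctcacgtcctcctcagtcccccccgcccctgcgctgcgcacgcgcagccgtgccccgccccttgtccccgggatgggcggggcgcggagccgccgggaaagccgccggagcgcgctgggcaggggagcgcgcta
Nmnat2, chr1:152954851-152955150, plus strand: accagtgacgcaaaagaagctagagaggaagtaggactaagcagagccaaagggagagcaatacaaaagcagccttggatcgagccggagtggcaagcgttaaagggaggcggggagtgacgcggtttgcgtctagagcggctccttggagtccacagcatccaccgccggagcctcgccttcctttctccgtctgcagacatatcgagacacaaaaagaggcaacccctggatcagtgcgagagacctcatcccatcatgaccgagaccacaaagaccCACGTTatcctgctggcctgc
Nmnat3, chr9:98296320-98296619, plus strand: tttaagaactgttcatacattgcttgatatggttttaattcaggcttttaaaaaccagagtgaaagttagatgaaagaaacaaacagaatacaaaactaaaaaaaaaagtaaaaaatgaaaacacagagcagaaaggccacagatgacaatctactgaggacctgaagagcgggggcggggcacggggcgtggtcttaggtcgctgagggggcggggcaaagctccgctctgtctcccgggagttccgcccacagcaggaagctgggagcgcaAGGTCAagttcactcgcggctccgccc
Sirt1, chr10:63338986-63339285, minus strand: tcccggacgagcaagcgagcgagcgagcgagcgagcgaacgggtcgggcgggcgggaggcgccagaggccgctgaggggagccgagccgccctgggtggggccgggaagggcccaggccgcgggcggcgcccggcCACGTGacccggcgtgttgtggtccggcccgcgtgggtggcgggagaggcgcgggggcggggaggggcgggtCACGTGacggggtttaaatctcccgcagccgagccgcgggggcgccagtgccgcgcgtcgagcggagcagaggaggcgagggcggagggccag

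Of the 9 genes, 8 had a promoter in this table, with 11 windows in all, and Nnmt was not among them. Sirt1 held the E-box at 115 and 43 bases before its start, and Parp1 held 1 at 49 bases before. CACGTG was in 7.15% of the 32851 promoters of the table. The variant CACGTT lay 29 bases after the start of Nmnat2 and was found in 4.68% of all promoters. AGGTCA, in 16.3% of all promoters, lay 151 bases before the start of Nampt and 23 bases after that of Nmnat3. Sirt6 held TGGGTCA 25 bases after its start, against 3.98% of all promoters, and no window of these genes held TAGGTCA (2.61%) or the D-box (2.32%). These matches describe the letters of the windows and no binding was measured.

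Expression is given as RPKM, in which the length of a gene's exons and the depth of the library are divided out, so that levels can be compared between genes. The libraries held from 6183500.5 to 10287969 fragments on exons, counted in steps of 0.5, and the fragments behind a value ranged from a mean of 28.3 per library for Nmnat3 in WT to 602 for Parp1 in WT. Counting error alone is then 19.0% of the value for Nmnat3 and 4.11% for Parp1, the least and the most deeply covered of the 9 genes in WT. Errors are SD over the 12 time points, which hold any change over time besides the noise between libraries. All 9 genes had a mean above 0.5 RPM (reads scaled to the library total alone) in WT or KO, and they were tested among 15112 such genes with limma on log2(RPKM + 0.1), with Benjamini-Hochberg adjustment over all of them. As a check of the genotype, Arntl (Bmal1) and Npas2, both known to be repressed by REV-ERBs, were 0.41 and 0.62 higher in KO on this scale, whereas the totals of Nr1d1 and Nr1d2 over all exons cannot show the deletion of single exons.

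In order of level, Parp1 was the most abundant of the 9 transcripts in WT with 9.004 ± 0.876 RPKM (SD, n = 12). It was followed by Nnmt (6.81 RPKM), Sirt6 (4.65 RPKM), Nampt (4.40 RPKM), Sirt3 (3.54 RPKM), Nmnat1 (2.31 RPKM), Sirt1 (2.19 RPKM), Nmnat3 (0.746 RPKM) and Nmnat2 (0.660 RPKM). Neighbours in this order were not all apart from each other. Sirt6 was above Nampt in 8 of 12 WT libraries, Nmnat1 above Sirt1 in 7 of 12, and Nmnat3 above Nmnat2 in 9 of 12, while Sirt1 was above Nmnat3 in 12 of 12. In KO the order was the same except that Nampt (4.88 RPKM) and Sirt6 (4.63 RPKM) changed places, with Nampt the higher of the pair in 6 of 12 libraries, and Nmnat3 was above Nmnat2 in 12 of 12 KO libraries.

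**Figure D1:**
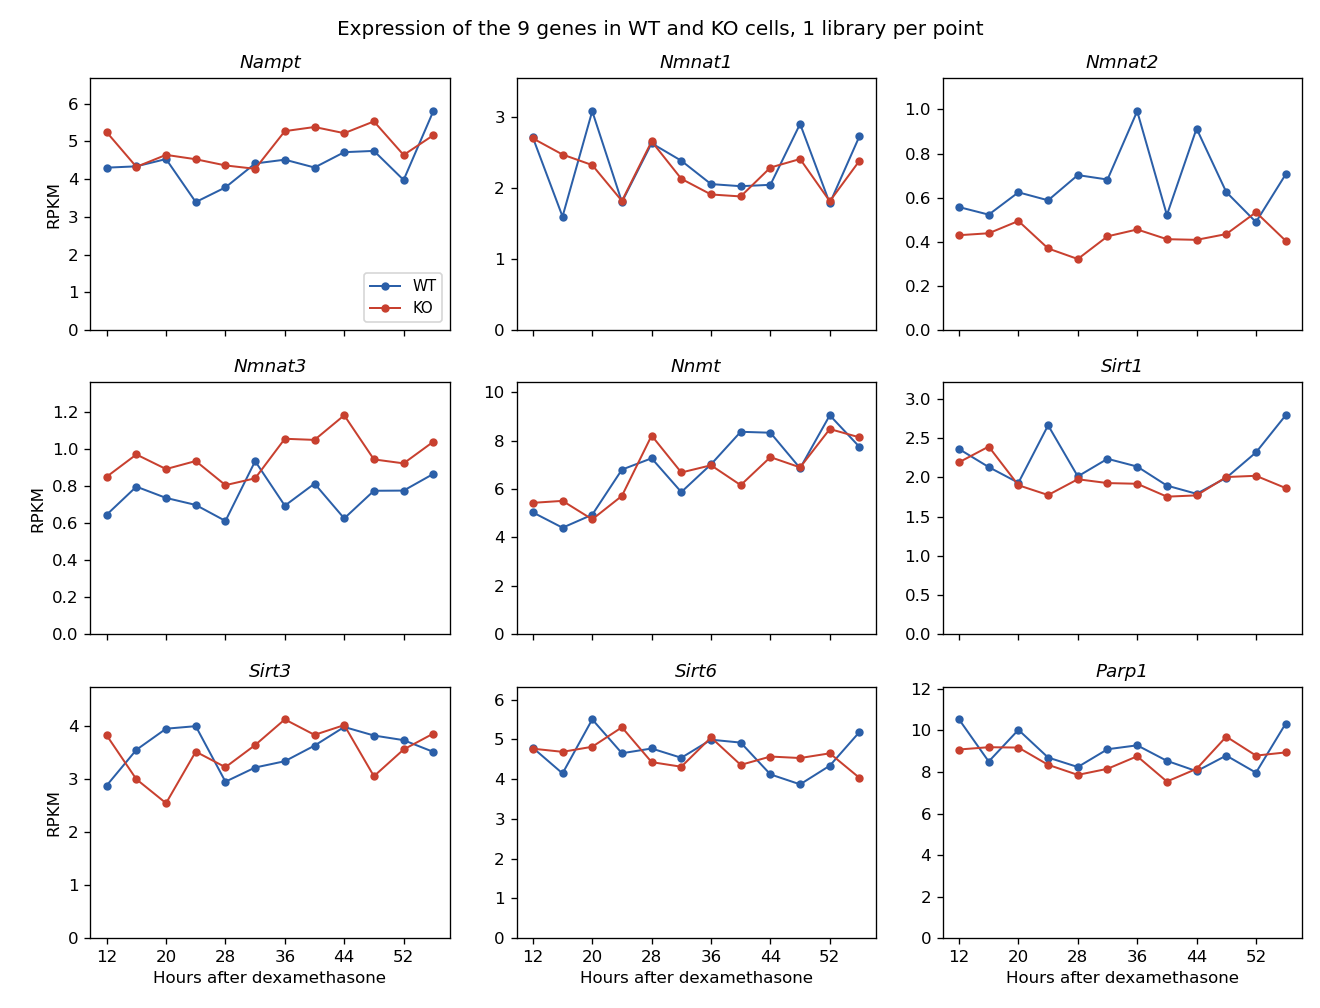
RPKM of the 9 genes (y axis, from 0) against hours after dexamethasone (x axis) in WT (blue) and KO (red), with 1 library per point. The KO line runs below the WT line for Nmnat2 at 11 of 12 time points and above it for Nmnat3 at 11 of 12, and Nnmt climbs with time in WT (slope 0.43 log2 units per 24 h), with a slope of 0.27 in KO that did not pass the test.

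Between the genotypes, the level of 2 of the 9 genes changed, and both are NMNAT isoforms at low levels: Nmnat2 fell and Nmnat3 rose in KO. Of all genes tested, 25.9% were called, 11.2% as higher and 14.7% as lower in KO, so that 2 of 9 is near the background. The median log2 difference was -0.02 over the 9 genes and -0.01 over all genes.

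Nmnat2 (chr1:152955101-153119261, plus strand), the isoform that protects axons, ranged from 0.489 through a median of 0.625 to 0.992 RPKM in WT and from 0.321 through 0.427 to 0.533 RPKM in KO. The highest KO library, at 52 h, was above the lowest WT library, at the same 52 h, so the groups overlapped, as they did for all but 0.609% of the genes tested. The mean was 0.660 ± 0.155 RPKM in WT (SD, n = 12) against 0.427 ± 0.0543 RPKM in KO, a KO/WT ratio of 0.647. On the log2(RPKM + 0.1) scale the difference was -0.51 (SE 0.0875, 95% interval -0.69 to -0.33; limma adjusted p = 0.000194). KO was lower at 11 of 12 time points, a consistency that 9.65% of all genes reached or passed in this direction. The widest gaps were at 36 h, with 0.992 RPKM in WT and 0.455 in KO, and at 44 h, with 0.913 and 0.408 RPKM.

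Nmnat3 (chr9:98296583-98411428, plus strand) ranged from 0.610 through 0.753 to 0.932 RPKM in WT and from 0.803 through 0.938 to 1.18 RPKM in KO. The WT library at 32 h was the highest of its group and the only one above the KO library of its time point. Means were 0.746 ± 0.0983 RPKM and 0.955 ± 0.109 RPKM, a ratio of 1.28. The log2 difference was 0.32 (SE 0.0628, 95% interval 0.19 to 0.45; limma adjusted p = 0.000663), with KO the higher at 11 of 12 time points, as at least that many for 7.5% of all genes. The SD of Nmnat3 was 13.2% of the mean in WT and 11.4% in KO. Both lie below its counting errors of 19.0% and 16.9%, so the SE and interval may be too narrow. The nuclear isoform Nmnat1 (chr4:149468787-149485142, minus strand) gave a log2 difference of -0.03 (95% interval -0.24 to 0.17; limma adjusted p = 0.833), its WT mean being 2.31 ± 0.491 RPKM and its KO mean 2.23 ± 0.317 RPKM.

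Nampt (chr12:32820335-32853369, plus strand), the rate-limiting enzyme of the salvage pathway, did not pass the test. It ranged from 3.39 through 4.38 to 5.80 RPKM in WT and from 4.27 through 4.91 to 5.53 RPKM in KO, with the lowest value of all in WT at 24 h and the highest in WT at 56 h. Means were 4.40 ± 0.589 and 4.88 ± 0.461 RPKM, a ratio of 1.11, and KO was the higher at 9 of 12 time points. The log2 difference of 0.15 (95% interval 0.02 to 0.29) had a limma adjusted p of 0.0874, and with the time, cosine and sine terms as covariates it passed the threshold (adjusted p = 0.0326). Without the WT library at 56 h the adjusted p was 0.0186, and leaving out any other single library kept it above the threshold of 0.05. Gdap10, a transcript of 0.201 RPKM, lies within Nampt on the same strand.

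The other nicotinamide consumer, Nnmt (chr9:48591877-48605123, minus strand), had means closer together than its error, 6.81 ± 1.49 RPKM for WT and 6.69 ± 1.21 RPKM for KO. Its log2 difference was -0.01 with a 95% interval of -0.25 to 0.23 (limma adjusted p = 0.944), and KO was the higher at 6 of 12 time points.

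Among the enzymes that split NAD, none of the 4 passed the test of level. Sirt1 (chr10:63319005-63339035, minus strand), the nuclear deacetylase tied to the clock, came nearest. It ranged from 1.79 through 2.14 to 2.79 RPKM in WT and from 1.75 through 1.92 to 2.39 RPKM in KO, with the widest gaps at 24 and 56 h, where the WT libraries were at 2.67 and 2.79 RPKM. The log2 difference was -0.15 (95% interval -0.28 to -0.02; limma adjusted p = 0.0896), with KO the higher at 2 of 12 time points. Leaving out the KO library at 16 h or the WT library at 44 h brought the adjusted p to 0.0404 and 0.047. Sirt3 (chr7:140863663-140881869, minus strand), the main mitochondrial deacetylase, gave -0.02 (95% interval -0.16 to 0.13), and 69 bases of its row overlap Ric8a, a gene of 11.4 RPKM on the opposite strand, from which a kit that does not mark strand cannot separate it. Sirt6 (chr10:81621786-81627608, minus strand), a chromatin deacylase, gave -0.005 (95% interval -0.11 to 0.10), and Parp1 (chr1:180568975-180601254, plus strand), the chief nuclear PARP of the DNA damage response, gave -0.06 (95% interval -0.16 to 0.05), and Mir6904, a row of 1.94 RPKM, lies within it. The limma adjusted p of these 3 genes ranged from 0.429 to 0.953.

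**Figure D2:**
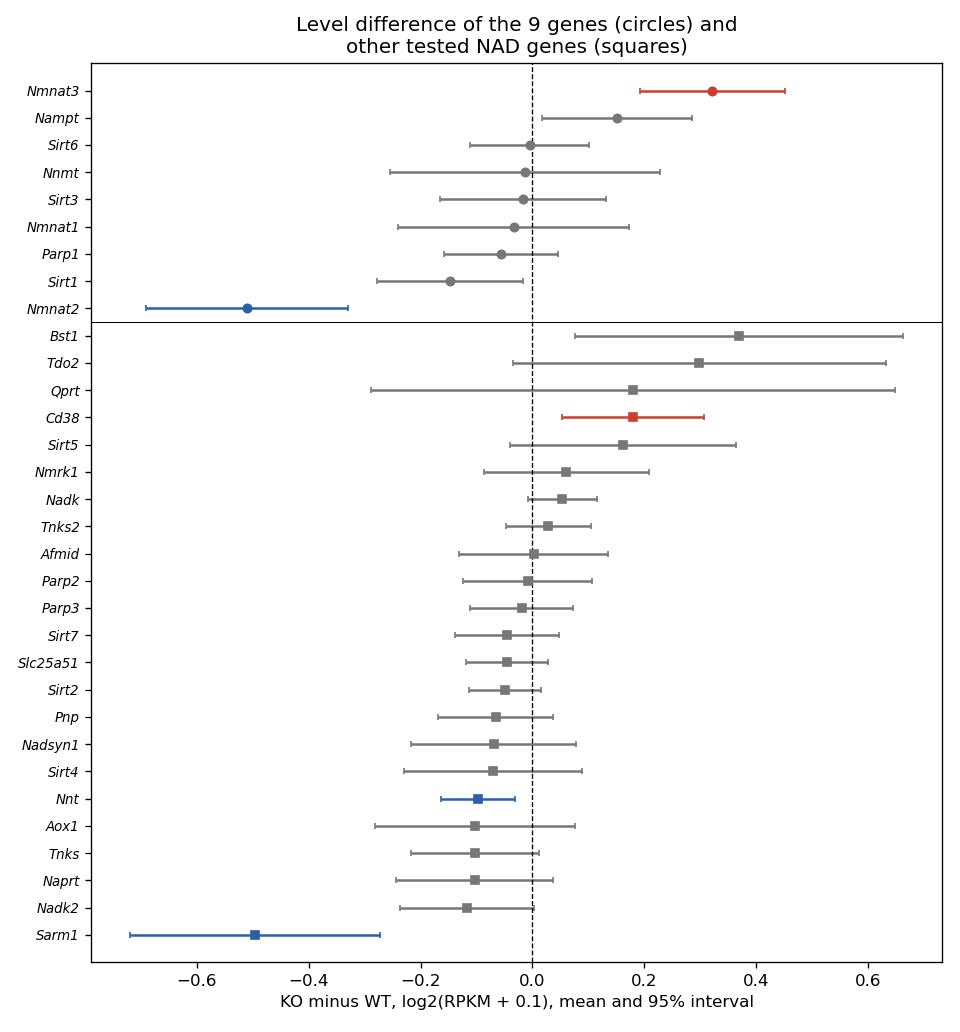
KO minus WT on the log2(RPKM + 0.1) scale (x axis) with 95% intervals for the 9 genes (circles) and for 23 other genes of NAD metabolism that passed the filter (squares). Red marks genes called higher and blue genes called lower in KO, from Nmnat3 at 0.32 to Nmnat2 at -0.51, and grey marks genes that did not pass the test.

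Of a list of 30 other genes of NAD synthesis and use, 23 passed the filter and 3 of these were called, 1 higher and 2 lower in KO, against 25.9% of all genes (11.2% higher and 14.7% lower). Their median log2 difference was -0.05. Sarm1, the NAD hydrolase that drives axon loss and is held back by NMNAT2, fell together with Nmnat2, from a mean of 0.301 ± 0.102 RPKM to 0.179 ± 0.0338 RPKM, a ratio of 0.593 and a log2 difference of -0.50 (SE 0.108; limma adjusted p = 0.00172), with KO lower at 12 of 12 time points, as for 3.65% of all genes. Cd38, which codes for an NAD hydrolase of the cell surface, rose from 5.06 ± 0.692 to 5.72 ± 0.467 RPKM (log2 difference 0.18, limma adjusted p = 0.0336). Nnt, the mitochondrial transhydrogenase that makes NADPH from NADH, fell from 5.14 ± 0.218 to 4.80 ± 0.280 RPKM (log2 difference -0.10, limma adjusted p = 0.028). The call of Nnt was lost without the WT library at 12 h (adjusted p = 0.0505). That of Cd38 was lost without any 1 of 10 libraries, those of WT at 12, 20, 24, 28, 32 and 36 h and of KO at 12, 28, 32 and 40 h, with adjusted p from 0.0502 to 0.062. The log2 differences of the other 20 tested genes lay between -0.12 and 0.37. The 7 genes under the filter, Nmrk2, Ido1, Ido2, Kmo, Kynu, Haao and Acmsd, reached at most 0.244 RPKM in any library. Ido1, Ido2, Kmo, Kynu and Haao among them act in the route from tryptophan to NAD.

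Markers of other cell types moved with the genotype, and in bulk RNA fewer cells of a type and less RNA per cell cannot be told apart. Summed RPKM of 8 neuron markers ranged from 3.74 to 36.0 in WT with a median of 11.4, and from 2.20 to 12.0 in KO with a median of 3.86. Of the 7 neuron markers that passed the filter, 4 fell in KO (Snap25, Syt1, Elavl3 and Elavl4) and 0 rose, and Rbfox3 was under the filter. For these and the marker calls below, the shares over all genes were 14.7% lower and 11.2% higher in KO. The 4 epithelial markers Epcam, Cdh1, Krt8 and Krt18 all rose, and their sum, from 145 to 277 RPKM in WT and from 257 to 429 RPKM in KO, was higher in KO at all 12 time points. The KO/WT ratio of the mean epithelial sums was 1.53. The fibroblast and mesenchyme sum was also higher in KO at 12 of 12, with a ratio of 1.12. Sums of endothelium and proliferating cells were higher at 10 of 12, and of smooth muscle and leukocytes at 9. Those of heart and skeletal muscle, endoderm and liver, adipocytes and pluripotent cells were higher at 4 or 5. Called markers of the other lists were Col1a1, Col1a2, Col3a1, Tagln, Cnn1, Myh11, Myh6, Actn2, Ckm, Pecam1 and Adgre1 as higher and Lum, Pdgfra and Tnnt2 as lower in KO, with 0 called among markers of endoderm and liver, adipocytes, proliferating or pluripotent cells. Only 2 of 4 adipocyte markers and 1 of 4 pluripotent markers were tested, since Adipoq, Plin1, Nanog, Zfp42 and Dppa5a were under the filter.

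Nmnat2 followed the neuron markers in WT. The WT libraries with the highest sums, at 36 h (36.0 RPKM) and 44 h (22.9 RPKM), were those with the most Nmnat2, and across the 12 WT libraries Pearson's r was 0.826 (permutation test, two-sided, p = 0.00163, adjusted over 10 relations p = 0.00733) and Spearman's rho was 0.524 (p = 0.0827, adjusted p = 0.165). Without the 2 WT libraries farthest from the median sum r was 0.371, so the relation rests on those libraries. In KO r was 0.241 and rho 0.280 (permutation p = 0.453 and 0.381, adjusted p = 0.454 and 0.381). Sarm1 gave r of 0.799 and rho of 0.622 in WT (permutation p = 0.0022 and 0.0356, adjusted p = 0.00733 and 0.0890), r of 0.454 without the 2 farthest libraries, and r of 0.278 and rho of 0.364 in KO (permutation p = 0.382 and 0.247, adjusted p = 0.454 and 0.309). Without the WT libraries at 36 and 44 h the log2 differences were -0.41 for Nmnat2 (limma adjusted p = 0.000177) and -0.39 for Sarm1 (adjusted p = 0.00433). With the summed neuron markers as a covariate they were -0.37 (adjusted p = 0.00358) and -0.31 (adjusted p = 0.032), and both genes kept their call. Tubb3 alone, which was not called (limma adjusted p = 0.0761), gave 8.05 RPKM of the mean sum of 12.8 in WT. In KO it gave 4.06 of 5.59 RPKM, so this covariate follows mainly 1 marker. The part of neurons in the fall of Nmnat2 and Sarm1 was not tested further.

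Nmnat3 and Nampt were set against the epithelial markers in the same way, within each genotype. Nampt followed them in both genotypes and Nmnat3 in KO, while the relation of Nmnat3 in WT did not pass the test. For Nmnat3, r was 0.728 and rho 0.811 across the 12 KO libraries (permutation p = 0.00761 and 0.00192, adjusted p = 0.019 and 0.0096), and 0.521 and 0.497 across the WT libraries (permutation p = 0.0818 and 0.104, adjusted p = 0.136 and 0.173). For Nampt, r was 0.819 and rho 0.881 in KO (permutation p = 0.00041 and 0.00025, adjusted p = 0.0041 and 0.0025), and 0.667 and 0.748 in WT (permutation p = 0.00992 and 0.00694, adjusted p = 0.0198 and 0.0231). Without the 2 libraries farthest from the median sum, r was 0.767 for Nmnat3 in KO and 0.388 in WT, and 0.837 and 0.672 for Nampt. With the summed epithelial markers as a covariate the log2 difference of Nmnat3 was 0.09 (limma adjusted p = 0.643) and that of Nampt -0.14 (adjusted p = 0.337), and that of Nmnat2 was -0.46 (adjusted p = 0.0826). For Sarm1 it was -0.33 (adjusted p = 0.346). In this fit 432 of the 15112 genes were called in place of 3918, and only 3 of the 12 WT libraries had an epithelial sum within the KO range. In these libraries the difference in Nmnat3 between the genotypes cannot be told apart from the difference in epithelial markers, and the part of the markers in it was not tested further. Cd38 gave r of 0.272 and rho of 0.392 in WT and -0.241 and -0.308 in KO with the same markers (permutation p from 0.21 to 0.454, adjusted p from 0.3 to 0.454).

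**Figure D3:**
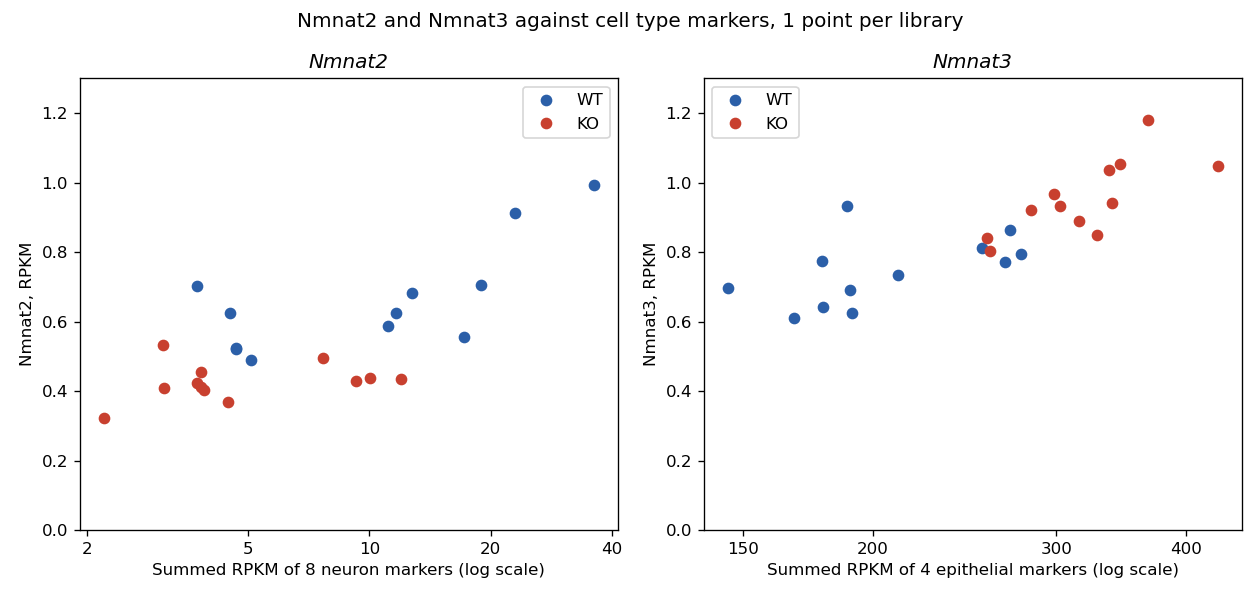
RPKM of Nmnat2 against the summed RPKM of 8 neuron markers (left) and RPKM of Nmnat3 against the summed RPKM of 4 epithelial markers (right), 1 point per library, WT in blue and KO in red, with log x axes. Nmnat2 is highest in the 2 WT libraries with sums of 22.9 and 36.0. Nmnat3 climbs with the epithelial sum in KO (r = 0.728), while the relation in WT (r = 0.521) did not pass the test. The epithelial sum reaches 277 in WT and begins at 257 in KO.

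Whether the genes were rhythmic was asked with a 24 h cosine and sine fit beside a linear trend in each genotype. None of the 9 genes was called in WT, where 0.0463% of all genes were, or in KO, where 0.0728% were. At an unadjusted p under 0.05 there was 1 in WT, Sirt3, and there were 2 in KO, Sirt3 and Nmnat3, against 7.57% and 7.92% of all genes. For Nampt, known for its daily rhythm in liver, the amplitude was 0.14 on the log2 scale in WT (SE 0.0571; limma p = 0.0762, adjusted p = 0.67) and 0.11 in KO (p = 0.238, adjusted p = 0.824). By comparison, Per2 had amplitudes of 0.71 in WT (adjusted p = 0.0267) and 0.75 in KO (adjusted p = 0.00767), and Dbp 0.46 and 0.88 (adjusted p = 0.0144 and 2.59e-06). Nr1d2 was also called in WT and in KO. In WT the same limma test did not call Nr1d1 (amplitude 0.39, adjusted p = 0.448), Arntl (0.24, adjusted p = 0.308) or Npas2 (0.27, adjusted p = 0.0549). In KO it called Nr1d1 (adjusted p = 0.00296) and not Arntl or Npas2. The cycling criterion of the study, given below, did call Nr1d1, Arntl and Npas2 in WT (integrated P = 0.000245, 7.17e-06 and 0.00124). By that criterion Nr1d1 was also cycling in KO, while Arntl and Npas2 were not. Amplitudes of the 9 genes lay between 0.05 (Nnmt) and 0.17 (Sirt3) in WT and between 0.009 (Parp1) and 0.16 (Nnmt) in KO, and the medians over all genes were 0.08 and 0.07. The SE of the amplitudes of the 9 genes ranged from 0.0547 (Parp1) to 0.116 (Nmnat1). With 12 time points, rhythms of the amplitudes fitted for the 9 genes, at most 0.17, were not detectable by the limma test after adjustment.

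Sirt3 had the largest WT amplitude of the 9 genes, and its fitted peaks stood apart between the genotypes. Its SD over the 12 libraries was 10.9% of the mean in WT and 13.5% in KO. Counting error alone was 10.8% and 10.9%, so the WT values varied by about as much as counting error. In WT it was highest at 24 and 20 h (3.99 and 3.94 RPKM) and again at 44 h (3.97 RPKM), and lowest at 12 and 28 h (2.87 and 2.94 RPKM). In KO it was highest at 36 and 44 h (4.12 and 4.01 RPKM) and lowest at 20 and 16 h (2.54 and 2.99 RPKM), so that 44 h was high in both genotypes and the courses differed most at 12, 20 and 36 h. The amplitude was 0.17 with a peak at 20.6 h in WT (limma p = 0.0221, adjusted p = 0.589) and 0.15 with a peak at 11.5 h in KO (p = 0.0424, adjusted p = 0.612), and the difference in rhythm had p = 0.00427 and adjusted p = 0.857. Among all genes 0 differences in rhythm were called by limma and 729 had an unadjusted p under 0.05, which is 4.82%, so that the difference of Sirt3 did not pass the correction.

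By the criterion of the study, which combines ARSER, JTK_CYCLE and Lomb-Scargle and requires P under 0.05 and a relative amplitude over 0.17, none of the 9 genes was cycling in WT or KO, against 1.18% and 1.65% of the genes expressed in each. Sirt3 in WT had an integrated P of 0.00084 with a period of 24.4 h, and was left out by its relative amplitude of 0.122. The integrated P of the other 8 genes in WT ranged from 0.261 (Sirt1) upward, and in KO the lowest was 0.164 (Nmnat3).

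**Figure D4:**
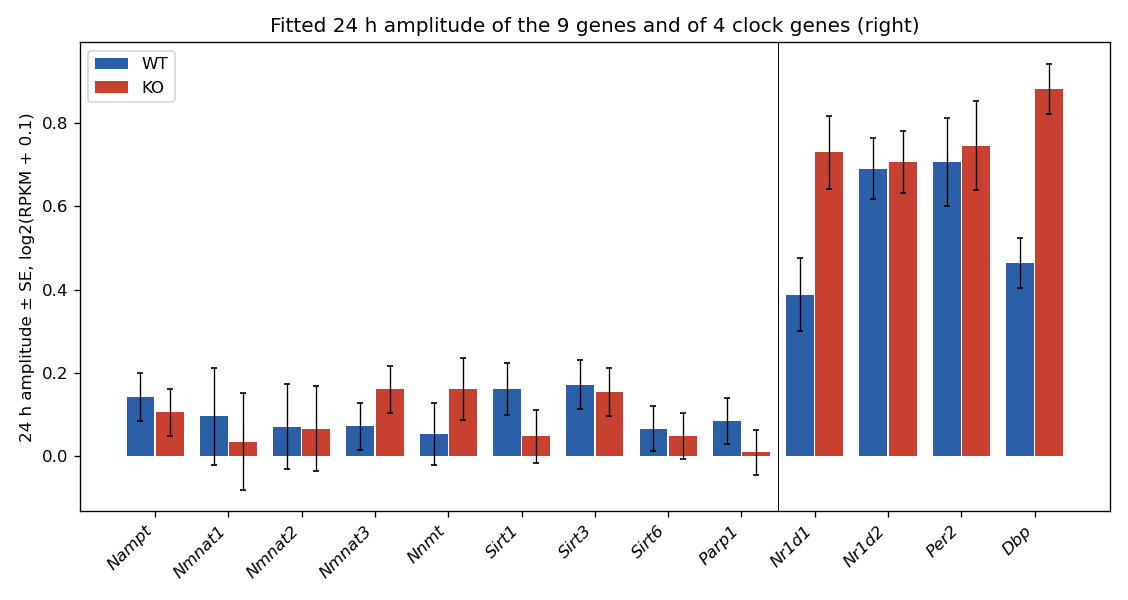
Fitted 24 h amplitude on the log2(RPKM + 0.1) scale (y axis, bars from 0, error bars SE) of the 9 genes and, to the right of the line, of the clock genes Nr1d1, Nr1d2, Per2 and Dbp in WT (blue) and KO (red). The 9 genes stay at or below 0.17, while the clock genes reach 0.39 to 0.88, of which the 0.39 of Nr1d1 in WT did not pass the test.

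Besides rhythm, levels could drift over the 44 h of sampling, and 1 of the 9 genes was called for such a trend. Nnmt rose in WT by 0.43 log2 units per 24 h (SE 0.0959; limma adjusted p = 0.0216), where 1.11% of all genes were called as rising, from 5.03 RPKM at 12 h and 4.40 at 16 h to 9.05 at 52 h and 7.74 at 56 h. The mean of the 6 WT libraries up to 32 h was 5.72 ± 1.14 RPKM and that of the 6 from 36 h on was 7.90 ± 0.849 RPKM, with ranges that overlapped between 6.86 and 7.27 RPKM. In KO, where 1.34% of all genes were called as rising, the slope of Nnmt was 0.27 (limma adjusted p = 0.152), with means of 6.05 ± 1.23 and 7.33 ± 0.856 RPKM, and the slopes did not pass a test of their difference (limma p = 0.245, adjusted p = 0.875). The WT call was lost without the WT library at 40 h (adjusted p = 0.0691) or at 44 h (0.0672). Nampt had slopes of 0.21 in WT and 0.15 in KO (limma adjusted p = 0.162 and 0.32), and those of the other 7 genes lay between -0.13 and 0.20. In the list of other NAD genes Tdo2, which opens the route from tryptophan, rose in WT by 0.59 per 24 h (limma adjusted p = 0.0458), with 0.43 in KO (adjusted p = 0.14).

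The genes whose course over the 24 libraries was most like that of each of the 9, by Pearson's r of log2(RPKM + 0.1) centred within genotype among 11872 genes with a mean of at least 1 RPKM, are given as a description. All points share time point and library. Nnmt had the closest partners, C1qtnf1 (r = 0.926), Prg4 (0.918) and Gm11747 (0.897), followed by Parp1 with Ccar2, Ncapd2 and Smarcd1 (0.856, 0.856 and 0.827). Partners of Nmnat2 were Gap43, a gene of growing axons (0.761), Reep1 (0.748) and Plppr2 (0.744), and those of Nmnat3 were Gprc5c (0.804), Acad10 (0.780) and Pcgf6 (0.703). Nampt was nearest to Ifi27l2a, Adgrg1 and Tmeff1 (0.814, 0.813 and 0.810), and Sirt6 to Ctbp1, Nln and H3f3a (0.824, 0.820 and 0.813). Partners of Sirt3 included C030006K11Rik and Bphl (0.738 and 0.718). Sirt1 was nearest to Dzip3, Gk5 and Pcnt (0.726, 0.693 and 0.687), and Nmnat1 to Ythdf2, Fbxo42 and Zfp120 (0.658, 0.654 and 0.635).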

How the data were processed

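PolyA-selected RNA-seq of 12 WT and 12 KO libraries was analysed, grouped by the labels. The authors used Trimmomatic 0.36 for trimming and STAR 2.5.4b for mapping to GRCm38, dropped alignments of mapping quality below 10 using SAMtools, counted reads on the exons of UCSC known canonical genes with HOMER and deposited RPKM for 33079 genes. The use of strand is not given in the sources used here. Columns of all 24 libraries were used. Fragments per gene, recovered from RPKM, the length and the total, were multiples of 0.5 to within 0.01 for 100% of values in each library and served to describe depth only, with counting error alone. A normalized unit was tested on a log scale, so no test for counts was used.

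Genes with a mean above 0.5 RPM in WT or KO (15112) were tested on log2(RPKM + 0.1) with limma 3.58.1 (R 4.3.3), so that fold changes of low genes are understated, with Benjamini-Hochberg adjustment over all genes and a threshold of 0.05. The 12 time points of a genotype served as its samples, and p-values then measure the spread between libraries of 1 line. Rhythm was fitted with a 24 h cosine and sine, genotype-specific intercepts and linear trends. The 3 cycling methods were programmed in R, MetaCycle being absent (periods from 20 to 28 h). These tests were tested on simulated data. Permutation tests (100000 permutations) and figures used Python 3.11.15, numpy 2.4.6, scipy 1.17.1, pandas 2.3.3 and matplotlib 3.10.9.

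The 9 genes and the lists of other NAD genes and cell type markers were chosen with earlier results of these data known. Named are all 9 genes, the other NAD genes that passed a test, the 3 genes most like each of the 9 (1 of them is not reported here), and 6 clock genes as references (Nr1d1, Nr1d2, Arntl, Npas2, Per2 and Dbp). Libraries of the same time point were checked for shared deviations: the mean r between WT and KO was 0.214 at the same and -0.0195 at other time points, but it ranged from -0.226 to 0.418 and exceeded 0.1 in 9 of 12 pairs and not in all 12. Since the labels name no shared batch, the main test left the time points unpaired. Alternatives were the pseudocount, the filter, quantile normalization, the time point as a block, rhythm terms, the period, the scale, permutation in place of limma, and the first time point. Leaving out single libraries, leaving out the WT libraries at 36 and 44 h, and marker sums as covariates were added after seeing the data. The 10 relations of genes to marker sums were not among the planned tests. Their adjustment covers only these 10 and not the choice of genes and lists.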

Additional observations from a re-analysis of the deposited data

How the results depend on the processing

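Differences in level were called for 3918 genes, and for 2735 to 4522 under the alternatives other than the summed epithelial markers as a covariate, with which 432 were called, and for 3379 to 4163 without any single library. Signs changed in 32 values of the 9 genes and 41 of the other NAD genes, none of which passed a test in either setting. Nmnat2 and Nmnat3, whose means lie below 1 RPKM, were not tested with the filter at 1 RPKM, and they kept their direction and call under the other alternatives run except the epithelial covariate. With a pseudocount of 1 their differences shrank to -0.21 and 0.16. Nampt passed the threshold with quantile normalization (adjusted p = 0.0499), with rhythm terms as covariates (0.0326) and with the neuron markers as a covariate (0.0482). Bst1 and Tdo2 passed it with rhythm terms (0.0375 and 0.0455), and Bst1 without the WT libraries at 36 and 44 h (0.0498) and without any 1 of 7 libraries.

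The rhythm fit called 7 genes in WT and 11 in KO. In WT it called 4 with no filter on low values, 2 with a period of 22 h, 1 with 26 h and 3 on linear RPKM, and in KO 5 with 22 h and 6 with 26 h. The difference in rhythm was called for 0 genes and for 1 without the 12 h time point or without the linear trend. Trends were called for 359 genes in each genotype, and without the 12 h time point for 236 in WT and 205 in KO, and with no cosine and sine terms for 580 in KO. The cycling criterion called 176 genes in WT and 243 in KO. With no filter on the relative amplitude it called 1341 and 1252, Sirt3 in WT among them, with adjusted P 20 and 25, with JTK_CYCLE alone 88 and 103, and without the 12 h time point 373 in KO. Without that time point the WT trend of Nnmt was lost (adjusted p = 0.0608), and so was that of Tdo2 (0.071), which also had 0.0747 with no filter. The KO trend of Nnmt was called with no cosine and sine terms (0.0336), as was the WT trend of Slc25a51 (0.0122). Nnt lost its call without the 12 h time point (0.052), with quantile normalization (0.0578) and with the neuron (0.0874) or epithelial (0.677) markers as a covariate, Cd38 without that time point (0.0765), without the WT libraries at 36 and 44 h (0.0671) and with the neuron (0.216) or epithelial (0.591) markers, and Sarm1 with the epithelial markers (0.346). Where a gene lost or gained a call, the cause was not tested.

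With the time point as a block, 4212 level differences and 0 rhythm differences were called and Nampt (adjusted p = 0.0306), Bst1 (0.0285) and Tdo2 (0.0446) passed the threshold, with no other call of the 9 genes or the other NAD genes changed. Libraries share only a time point, and 5 of 12 WT libraries correlated best with the KO library of their own.

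Each time point has 1 library and each genotype 1 line. A difference at a single time point therefore cannot be tested, and a level difference of the size of Nampt's (0.15) lies near the threshold. Nmnat1, Nmnat2 and Nmnat3 rest on a mean of 28.3 to 52.6 fragments per library, the fewest of the 9 genes.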
